A study of Mus musculus with 12 samples.

Results

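The 36 genes described here encode proteins that sense DNA damage, hold the cell cycle until it is mended, and repair it: 9 damage sensors and checkpoint kinases, 10 genes of homologous recombination, 5 of non-homologous end joining, 8 of base excision and single-strand break repair, 3 of the Fanconi anaemia pathway and 1 of mismatch repair. They were chosen by their symbols. All 36 were among the 24328 gene symbols of the deposited count table, and all 36 passed the filter on low counts that left 12695 genes for testing. The libraries were made from flow-sorted microglia, which are the macrophages that reside in the brain, of wild-type Balb/c mice. The control group of 4 mice was untransplanted. The syngeneic group of 4 mice received lethal irradiation followed by 5000000 bone marrow cells and 300000 T cells from a syngeneic donor, and the allogeneic group of 4 mice received the same irradiation and the same numbers of marrow cells and T cells from an allogeneic donor. Both transplanted groups were killed by perfusion on day 14, given in the labels as the peak of acute graft-versus-host disease (GvHD), in which donor T cells attack the recipient's tissues. Because irradiation, marrow and T cells came together and no group was only irradiated, their shares in a difference from control cannot be told apart. The donor strain and the sort gate are not stated in the sources used here.

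Cells answer a double-strand break or a stalled replication fork through the kinases ATM and ATR, which act on the checkpoint kinases CHK2 and CHK1. Breaks are then joined end to end by the Ku proteins and DNA ligase IV, at any time of the cell cycle, or copied back from the sister chromatid by homologous recombination, with the BRCA proteins, mainly in S and G2 phase. Damaged bases and single-strand breaks are handled by glycosylases, an endonuclease, PARP enzymes, XRCC1 and DNA ligases. Several of these genes, CHK1 and BRCA1 among them, are known to be transcribed mostly in dividing cells through E2F factors, while adult microglia divide rarely.

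The 250 bases before the start of transcription are printed for 4 members. Against control, Chek1 and Brca1 rose and Chek2 and Xrcc1 fell. The log2 fold change of Chek2 was -1.02 in syngeneic and -0.49 in allogeneic microglia. The sequences are as RefSeq gives them on GRCm38.p6, 5′ to 3′ on the strand of the gene. Capitals mark an E2F word (TTTCCCGC, TTTGGCGC, TTTCGCGC or TTTGCCGC on either strand) or the word CCAAT on either strand (ATTGG). The E2F words can overlap one another in a promoter, and no E2F word overlapped a CCAAT word in these 4 sequences.
Chek1 (chr9:36726659-36726908, minus strand): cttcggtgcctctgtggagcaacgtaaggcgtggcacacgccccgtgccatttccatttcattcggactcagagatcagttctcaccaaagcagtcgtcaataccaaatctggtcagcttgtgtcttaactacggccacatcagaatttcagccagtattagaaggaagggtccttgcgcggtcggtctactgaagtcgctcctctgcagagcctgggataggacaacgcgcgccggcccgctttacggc
Brca1 (chr11:101551956-101552205, minus strand): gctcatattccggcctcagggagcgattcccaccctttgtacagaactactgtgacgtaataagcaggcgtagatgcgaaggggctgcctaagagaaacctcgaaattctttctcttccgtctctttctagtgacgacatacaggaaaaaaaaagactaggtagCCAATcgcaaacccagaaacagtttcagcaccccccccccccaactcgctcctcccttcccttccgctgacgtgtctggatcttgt
Chek2 (chr5:110839733-110839982, plus strand): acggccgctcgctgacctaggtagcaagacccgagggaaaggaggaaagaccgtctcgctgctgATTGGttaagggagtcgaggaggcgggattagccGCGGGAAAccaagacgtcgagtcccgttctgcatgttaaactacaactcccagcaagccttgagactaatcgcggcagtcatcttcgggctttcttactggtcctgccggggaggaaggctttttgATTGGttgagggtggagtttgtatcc
Xrcc1 (chr7:24546449-24546698, plus strand): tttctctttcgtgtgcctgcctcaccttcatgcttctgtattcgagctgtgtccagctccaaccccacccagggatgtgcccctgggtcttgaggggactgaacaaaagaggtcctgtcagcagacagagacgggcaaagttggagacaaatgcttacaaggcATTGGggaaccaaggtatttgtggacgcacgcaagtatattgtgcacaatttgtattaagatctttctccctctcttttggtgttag
The Chek1 window held neither word, the Brca1 window a CCAAT that began 86 bases before the start, the Xrcc1 window an ATTGG that began 87 bases before it, and the Chek2 window an E2F word and a pair of ATTGG. Of the 29 members matched to a RefSeq promoter, 4 held an E2F word (Chek2, Mdc1, Brca2 and Xrcc6), or 13.8%. Over all 27025 genes with a promoter of the same length, the share was 2.16%. CCAAT was in 14 of the 29 members, or 48.3%, beside 37.5% of those 27025 genes. A gene with several promoters counted if any of them held the word. By their calls in syngeneic against control, 7 of the 12 members that rose, all 6 that fell and 16 of the 18 not called were among these 29. An E2F word was in 0 of those 7, 2 of those 6 and 2 of those 16. A match describes these letters only, and a window without them says nothing of a factor.

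Levels are CPM, a gene's counts per 1000000 counts of the library after TMM factors (which set the bulk of genes level between libraries), and a gene was called at an edgeR quasi-likelihood adjusted p under 0.05. Total counts were 32652208 to 45439607 in the control, 36422729 to 46126118 in the syngeneic and 35559202 to 42641198 in the allogeneic libraries. In syngeneic against control, 12 members rose and 6 fell, which is 50% of the 36 beside 52.1% of all genes tested (26.4% higher, 25.6% lower). In allogeneic against control, 10 rose and 9 fell, 52.8% beside 57.3% of all genes (28.2% higher, 29.1% lower). In allogeneic against syngeneic, 2 rose and 4 fell, 16.7% beside 16.5% of all genes (10.1% higher, 6.38% lower). In each comparison the share of members called was thus close to that of all genes, and the counts alone set the members apart from no other genes. With scaling by library totals alone, the counts were 8 higher and 7 lower in syngeneic against control, 5 and 14 in allogeneic against control, and 1 and 5 in allogeneic against syngeneic. That scaling moved the median fold change over all genes (log2) from -0.03 to -0.20, from -0.07 to -0.44 and from -0.01 to -0.22 in these comparisons, so directions here are relative to the bulk of genes. In the same order, the median of the members was 0.28, 0.23 and -0.24 with TMM scaling and 0.11, -0.14 and -0.45 with library totals. The 2 comparisons with control share the control libraries, and allogeneic against syngeneic shares its libraries with them. In bulk RNA, fewer cells of a type and less RNA per cell cannot be told apart.

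Of the 36 members, 24 were called in at least 1 comparison and 12 in none. The same counts over all genes were not made. Against control, 52.1% of all genes were called in syngeneic and 57.3% in allogeneic microglia, so these counts do not set the members apart. Chek1, H2afx, Rad50, Brca1, Blm, Exo1, Xrcc4, Lig1 and Ung were higher in both transplanted groups against control, and Chek2, Trp53bp1, Xrcc1, Lig3 and Parp2 were lower in both. None was called in opposite directions against control in the transplanted groups. Because both comparisons use the same control libraries, calls in the same direction are not independent of each other. The plot of fold changes by role shows the rises reaching further than the falls.

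**Figure D1:**
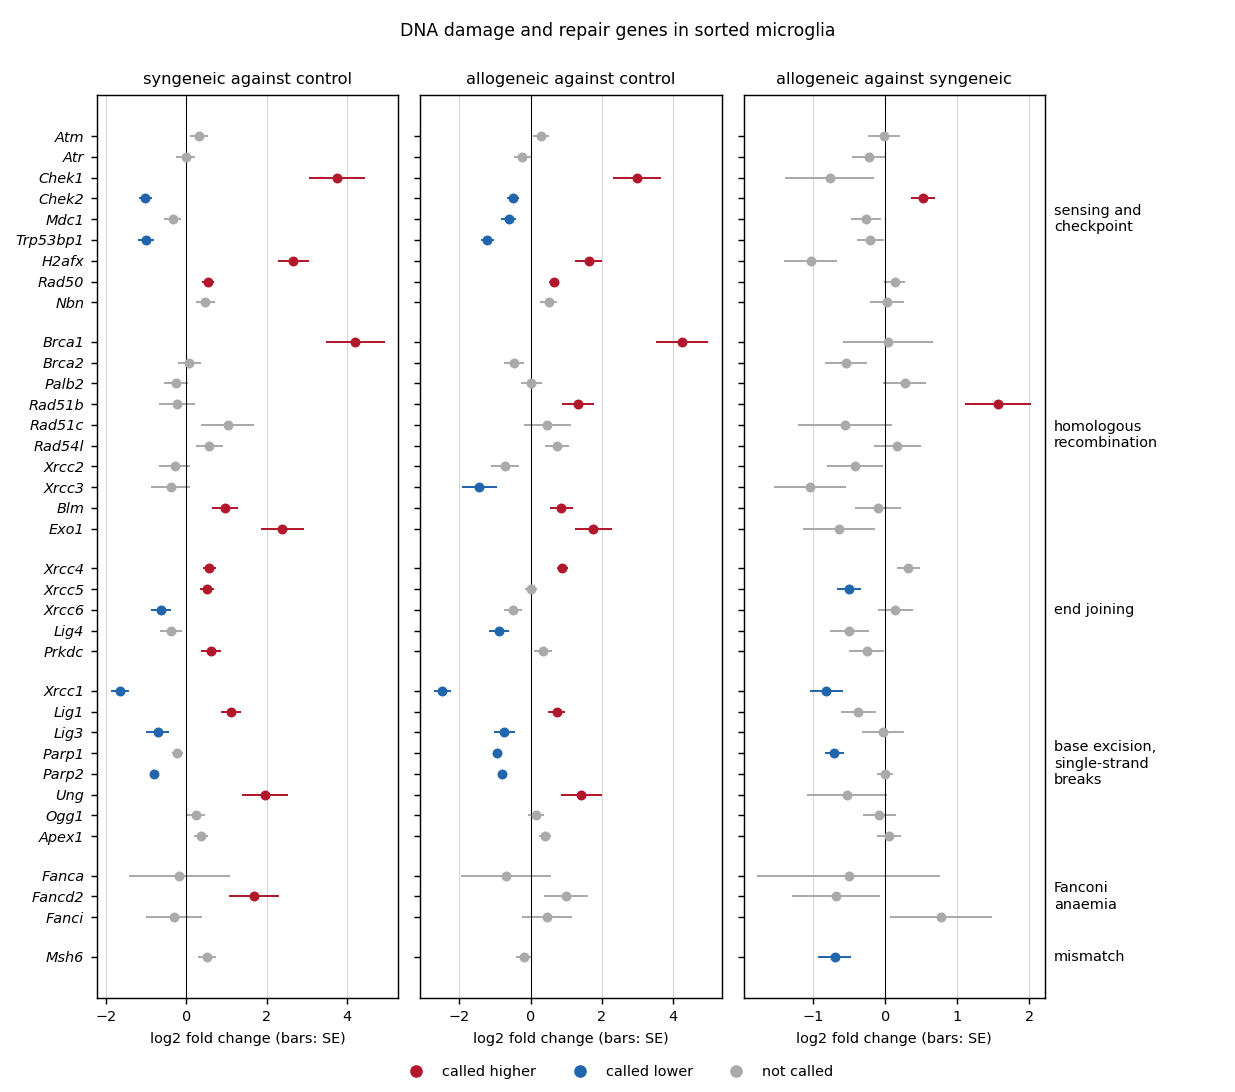
Log2 fold change of each of the 36 genes (points, with SE as bars) in the 3 comparisons, ordered by role, with its own horizontal scale in each panel; red points were called higher, blue points lower and grey points not called at an edgeR adjusted p under 0.05. Brca1 (4.21) and Chek1 (3.76) lie farthest to the right in syngeneic against control, and Xrcc1 (-2.48) farthest to the left in allogeneic against control.

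Among the damage sensors and checkpoint kinases, the kinases that act below ATR and ATM moved in opposite directions. Chek1, the checkpoint kinase that acts below ATR, had 0.991, 0, 0.568 and 2.12 CPM in the control, 12.2, 16.8, 9.58 and 11.4 in the syngeneic and 6.08, 7.05, 11.3 and 4.89 in the allogeneic libraries. The control library at 0 held no read, where 3 counts would be 0.0796 CPM, and every transplanted library stood above every control library. Chek1 rose 13.6-fold in syngeneic (log2 fold change 3.76 with SE 0.70, edgeR adjusted p = 0.000232) and 7.96-fold in allogeneic microglia (log2 fold change 2.99 with SE 0.68, edgeR adjusted p = 0.00117). Without control 4, which held the most Chek1 of the controls, the log2 fold changes were 4.57 and 3.79. By limma-voom the log2 fold changes of Chek1 were 5.06 and 4.24 (limma-voom adjusted p = 0.000188 and 0.00112). Chek2, the checkpoint kinase that acts below ATM, had 65.9, 59.9, 42.9 and 43.3 CPM in the control, 25.9, 33.1, 20.9 and 24.7 in the syngeneic and 33.2, 40.9, 39.6 and 37.2 in the allogeneic libraries. No syngeneic or allogeneic library reached the lowest control, and all allogeneic libraries stood above all syngeneic ones, the lowest allogeneic being just above the highest syngeneic. Chek2 fell in syngeneic (log2 fold change -1.02 with SE 0.17, edgeR adjusted p = 5.21e-05) and in allogeneic microglia (log2 fold change -0.49 with SE 0.17, edgeR adjusted p = 0.0175), and it was higher in allogeneic than in syngeneic microglia (log2 fold change 0.53 with SE 0.17, edgeR adjusted p = 0.0351). That last call was lost at an edgeR adjusted p of 0.0585 to 0.116 without any 1 of syngeneic 1, syngeneic 3, syngeneic 4, allogeneic 2, allogeneic 3 or allogeneic 4, and the call of allogeneic against control at 0.0523 to 0.0774 without any 1 of control 1 or allogeneic 1. As a description of values already seen, with no test, the ratio of Chek1 to Chek2 counts within a library was 0 to 0.049 in control, 0.459 to 0.508 in syngeneic and 0.131 to 0.284 in allogeneic libraries, so the 3 groups did not overlap.

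H2afx encodes the histone H2AX, whose phosphorylated form marks chromatin around a break. It had 1.31, 3.16, 1.8 and 2.92 CPM in the control, 7.71, 16.2, 13.3 and 21.2 in the syngeneic and 10.6, 5.1, 8.06 and 4.74 in the allogeneic libraries. All transplanted libraries exceeded all controls, while the transplanted groups overlapped. H2afx rose 6.36-fold in syngeneic (log2 fold change 2.67 with SE 0.38, edgeR adjusted p = 1.25e-05) and 3.1-fold in allogeneic microglia (log2 fold change 1.63 with SE 0.37, edgeR adjusted p = 0.00111). The difference between the transplanted groups missed the threshold (log2 fold change -1.04 with SE 0.36, edgeR adjusted p = 0.0593) and passed it at 0.0262 to 0.0482 without any 1 of control 1, syngeneic 1 or allogeneic 1. The adaptors that bind around breaks went the other way. Trp53bp1, whose product 53BP1 steers breaks to end joining, had 22.2, 24.1, 28.8 and 23.9 CPM in the control, 10.7, 10.8, 15 and 13 in the syngeneic and 11.9, 10.4, 12.3 and 8.21 in the allogeneic libraries. Every transplanted library lay below every control, and the fall was -1.0 ± 0.19 in syngeneic and -1.21 ± 0.19 in allogeneic microglia on the log2 scale (± SE, edgeR adjusted p = 0.000263 and 3.31e-05). Mdc1, whose product reads phosphorylated H2AX, was at 26.5 ± 2.91 CPM in control, 20.9 ± 5.02 in syngeneic and 17.4 ± 4.74 in allogeneic libraries (mean ± SD, n = 4). It fell in allogeneic microglia against control (log2 fold change -0.61 with SE 0.21, edgeR adjusted p = 0.0191), a call lost at 0.05 to 0.068 without any 1 of control 1 or allogeneic 2. Rad50, a subunit of the MRN complex that binds broken ends, had 25.3, 36.7, 38.9 and 39.9 CPM in the control, 52.4, 42.8, 53.2 and 56.1 in the syngeneic and 54.4, 61.3, 51.2 and 56.6 in the allogeneic libraries. Its controls all lay below the transplanted libraries, with rises of 0.54 ± 0.14 and 0.67 ± 0.14 (log2 ± SE, edgeR adjusted p = 0.00392 and 0.00058). With library totals alone, the edgeR adjusted p of the allogeneic rise of Rad50 was 0.101. Nbn, another MRN subunit, and the kinases Atm and Atr were called in no comparison, at 13.1 ± 3.79, 16.3 ± 3.55 and 16.1 ± 1.23 CPM for Atm in control, syngeneic and allogeneic libraries (mean ± SD, n = 4). The log2 fold changes against control were 0.31 ± 0.22 and 0.30 ± 0.23 for Atm, -0.01 ± 0.24 and -0.23 ± 0.24 for Atr, and 0.48 ± 0.24 and 0.50 ± 0.24 for Nbn (± SE). Nbn alone of these passed the threshold when a library was left out, in allogeneic against control at 0.0386 without allogeneic 4. Of the 9 genes, 3 rose and 2 fell in syngeneic and 3 rose and 3 fell in allogeneic microglia against control. These are 55.6% and 66.7% of the 9, beside 52.1% and 57.3% of all genes tested.

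Among the 10 genes of homologous recombination, 3 rose and 0 fell in syngeneic against control, and 4 rose and 1 fell in allogeneic against control. The shares called were 30% and 50%, beside 52.1% and 57.3% of all genes tested. Brca1, which promotes end resection, was nearly silent in control microglia, with 0.843, 0.929, 0.0196 and 0.155 CPM in the control, 13, 8.57, 4.76 and 9.38 in the syngeneic and 14, 13.4, 3.52 and 5.65 in the allogeneic libraries. The control values correspond to 34, 35, 1 and 6 reads. Every transplanted library exceeded every control, and the transplanted groups overlapped. The rise was 18.5-fold in syngeneic (log2 fold change 4.21 with SE 0.73, edgeR adjusted p = 0.000115) and 19-fold in allogeneic microglia (log2 fold change 4.25 with SE 0.73, edgeR adjusted p = 9.06e-05). By limma-voom the log2 fold changes of Brca1 were 5.23 and 5.09 (limma-voom adjusted p = 0.00112 and 0.00136). Exo1, the exonuclease that lengthens resected ends, had 2.48, 0.664, 0.549 and 1.01 CPM in the control, 4.35, 6.7, 6.3 and 7.46 in the syngeneic and 2.58, 3.44, 2.55 and 7.33 in the allogeneic libraries. Its controls lay below all transplanted libraries, control 1 being closest to them. Exo1 rose in syngeneic (log2 fold change 2.4 with SE 0.53, edgeR adjusted p = 0.000858) and in allogeneic microglia (log2 fold change 1.76 with SE 0.52, edgeR adjusted p = 0.0072), and the log2 fold changes were 3.06 and 2.42 without control 1. Blm, the Bloom syndrome helicase, was at 4.55 ± 2.21 CPM in control, 8.87 ± 1.12 in syngeneic and 8.26 ± 1.5 in allogeneic libraries (mean ± SD, n = 4), with groups that overlapped. Its rise was 0.96 ± 0.33, edgeR adjusted p = 0.0196 in syngeneic and 0.86 ± 0.33, edgeR adjusted p = 0.0321 in allogeneic microglia (log2 ± SE). The syngeneic call was lost at 0.0575 to 0.0588 without any 1 of control 3 or control 4, and the allogeneic call at 0.0702 to 0.0981 without any 1 of control 3, control 4, allogeneic 1 or allogeneic 3.

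Rad51b, Rad51c, Xrcc2 and Xrcc3, which act together in recombination, were not all called, and the calls went in different directions. Rad51b had 3.3, 3.53, 1.86 and 2.72 CPM in the control, 2.59, 4.5, 1.4 and 1.19 in the syngeneic and 9.55, 7.98, 7.44 and 3.74 in the allogeneic libraries. All 4 allogeneic libraries exceeded all 4 controls, with allogeneic 4 close to the highest control and below the highest syngeneic library. Rad51b was higher in allogeneic than in syngeneic microglia (log2 fold change 1.57 with SE 0.46, edgeR adjusted p = 0.0243) and than in control (log2 fold change 1.33 with SE 0.46, edgeR adjusted p = 0.0187). The first call was lost at 0.051 to 0.0773 without any 1 of syngeneic 1, syngeneic 3, syngeneic 4, allogeneic 1, allogeneic 2 or allogeneic 3, and the second at 0.0578 to 0.0613 without any 1 of control 3 or allogeneic 1. Xrcc3 had 3.12, 3.93, 2.72 and 9.23 CPM in the control, 3.19, 2.48, 4.44 and 4.37 in the syngeneic and 0.851, 1.42, 2.69 and 2.06 in the allogeneic libraries. All allogeneic libraries lay below all controls, of which control 4 was far above the others, and Xrcc3 fell in allogeneic microglia against control (log2 fold change -1.44 with SE 0.50, edgeR adjusted p = 0.0205). That call was lost at 0.0549 to 0.158 without any 1 of control 4 or allogeneic 1. Rad51c and Xrcc2 were called in no comparison, with log2 fold changes against control of 1.04 ± 0.66 and 0.48 ± 0.66 for Rad51c and -0.29 ± 0.38 and -0.71 ± 0.39 for Xrcc2 (± SE, syngeneic then allogeneic). Xrcc2 passed the threshold in allogeneic against control at 0.00716 without allogeneic 1. Brca2, which acts on resected DNA, Palb2, which bridges BRCA1 and BRCA2, and Rad54l, which drives strand exchange, were called in no comparison either. Rad54l passed the threshold at 0.0445 without control 4 in syngeneic against control and at 0.0179 to 0.0384 without any 1 of control 4 or allogeneic 1 in allogeneic against control. Brca2 was at 10.5 ± 4.08 CPM in control, 11 ± 2.04 in syngeneic and 7.54 ± 2.12 in allogeneic libraries (mean ± SD, n = 4), with log2 fold changes against control of 0.08 ± 0.29 and -0.47 ± 0.29. The same values were -0.25 ± 0.30 and 0.02 ± 0.30 for Palb2 and 0.58 ± 0.33 and 0.74 ± 0.33 for Rad54l (± SE, syngeneic then allogeneic). Whether the change of Brca1 differed from that of Brca2 was not tested.

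In non-homologous end joining, 3 rose and 1 fell among the 5 genes in syngeneic against control, and 1 rose and 1 fell in allogeneic against control. With only 5 genes, this was 80% and 40% called, beside 52.1% and 57.3% of all genes tested. Xrcc4, the scaffold of the ligase complex, had 12.8, 13.4, 14.3 and 12.8 CPM in the control, 16.5, 24, 20.5 and 18.5 in the syngeneic and 27.7, 24.4, 24.5 and 22.5 in the allogeneic libraries. Its controls were tight and below all transplanted libraries. Xrcc4 rose by 0.58 ± 0.16, edgeR adjusted p = 0.00598 in syngeneic and 0.90 ± 0.16, edgeR adjusted p = 0.000124 in allogeneic microglia (log2 ± SE). With GC content and length corrected in the fit (an offset) these values were 7.39e-05 (edgeR adjusted p = 1) and 0.09, edgeR adjusted p = 0.661. Lig4, the ligase that XRCC4 holds, had 11.4, 15.8, 9.43 and 12.6 CPM in the control, 9.81, 8.81, 9.61 and 9.4 in the syngeneic and 8.1, 5.21, 4.03 and 9.3 in the allogeneic libraries. Every allogeneic library was below every control, and Lig4 fell in allogeneic microglia (log2 fold change -0.88 with SE 0.27, edgeR adjusted p = 0.0101).

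The Ku subunits, encoded by Xrcc5 (Ku80) and Xrcc6 (Ku70), which clamp together around a broken end, were called in opposite directions in syngeneic microglia. Neither call was kept with the offset for GC content and length. The log2 fold changes were then 0.36 for Xrcc5 (edgeR adjusted p = 0.0875) and -0.19 for Xrcc6 (edgeR adjusted p = 0.543). Xrcc5 had 19, 21.9, 31.4 and 25.7 CPM in the control, 36.8, 39.4, 36.2 and 27.5 in the syngeneic and 27.6, 22.3, 25.2 and 23.6 in the allogeneic libraries. The syngeneic libraries were mostly above the others, with overlap through control 3 and syngeneic 4. Xrcc5 was higher in syngeneic than in control microglia (log2 fold change 0.51 with SE 0.17, edgeR adjusted p = 0.0156), at 24.7 ± 2.27 CPM in allogeneic beside 24.5 ± 5.33 in control libraries (log2 fold change 0.01 with SE 0.17, edgeR adjusted p = 0.959), and lower in allogeneic than in syngeneic microglia (log2 fold change -0.50 with SE 0.17, edgeR adjusted p = 0.0486). The syngeneic rise was lost at 0.0525 to 0.0592 without any 1 of control 1 or syngeneic 2, and the difference between the transplanted groups at 0.0507 to 0.132 without any 1 of control 4, syngeneic 1, syngeneic 2, syngeneic 3, allogeneic 1, allogeneic 2, allogeneic 3 or allogeneic 4. Xrcc6 had 28.3, 21.4, 26.9 and 21.3 CPM in the control, 8.63, 20.2, 15.3 and 19.2 in the syngeneic and 24.5, 16.6, 13.3 and 15.4 in the allogeneic libraries. The syngeneic libraries lay below the controls, syngeneic 1 lowest of all, and the allogeneic libraries overlapped both groups. Xrcc6 fell in syngeneic microglia (log2 fold change -0.63 with SE 0.25, edgeR adjusted p = 0.0394), a call lost at 0.0785 to 0.122 without any 1 of control 1, control 3, syngeneic 1 or syngeneic 3. It passed the threshold in allogeneic against control at 0.0267 to 0.0485 without any 1 of syngeneic 1 or allogeneic 1. Described without a test, since it was chosen after the values were seen, the ratio of Xrcc5 to Xrcc6 counts was 0.672 to 1.21 in control, 1.44 to 4.27 in syngeneic and 1.13 to 1.9 in allogeneic libraries. This ratio is not corrected for GC content or length. Prkdc, the catalytic subunit of the DNA-dependent protein kinase that Ku recruits, was at 11 ± 2.92 CPM in control, 16.8 ± 3.72 in syngeneic and 14 ± 3.28 in allogeneic libraries (mean ± SD, n = 4), with overlapping groups. It rose in syngeneic microglia (log2 fold change 0.62 with SE 0.25, edgeR adjusted p = 0.0453), a call lost at 0.0516 to 0.153 without any 1 of control 1, control 2, control 4, syngeneic 2, syngeneic 3, syngeneic 4, allogeneic 1 or allogeneic 2.

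The largest fall of the 36, that of Xrcc1, was in base excision and single-strand break repair. Among the 8 genes there, 2 rose and 3 fell in syngeneic against control, and 2 rose and 4 fell in allogeneic against control. That was 62.5% and 75% called, beside 52.1% and 57.3% of all genes tested. Xrcc1, the scaffold that gathers the enzymes of single-strand break repair, had 44.5, 44.4, 37.2 and 37.5 CPM in the control, 11.1, 10.3, 13.4 and 17 in the syngeneic and 10.7, 6.94, 4.52 and 7.27 in the allogeneic libraries. The controls stood far above all transplanted libraries, and 3 of the 4 allogeneic libraries stood below all syngeneic ones. Xrcc1 fell 3.16-fold in syngeneic (log2 fold change -1.66 with SE 0.23, edgeR adjusted p = 6.93e-06) and 5.57-fold in allogeneic microglia (log2 fold change -2.48 with SE 0.24, edgeR adjusted p = 5.09e-08), and was lower in allogeneic than in syngeneic microglia (log2 fold change -0.82 with SE 0.23, edgeR adjusted p = 0.0174). The last call was lost at 0.0556 to 0.0662 without any 1 of syngeneic 4 or allogeneic 3 and at an edgeR adjusted p of 0.0576 when only the 2 transplanted groups were fitted. With the offset for GC content and length the falls of Xrcc1 against control were -0.99, edgeR adjusted p = 0.00138 in syngeneic and -1.75, edgeR adjusted p = 4.57e-06 in allogeneic microglia.

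Parp1 and Parp2, the poly(ADP-ribose) polymerases that signal single-strand breaks, both fell in allogeneic against control, and their calls differed in the other 2 comparisons. Parp1 had 91, 74.5, 91.2 and 83.6 CPM in the control, 65.1, 69.99, 72.5 and 84.1 in the syngeneic and 33, 45.8, 53.1 and 46.4 in the allogeneic libraries. The allogeneic libraries were the 4 lowest of all 12, while syngeneic and control libraries overlapped. Parp1 fell in allogeneic against control (log2 fold change -0.93 with SE 0.13, edgeR adjusted p = 8.98e-06) and in allogeneic against syngeneic microglia (log2 fold change -0.71 with SE 0.13, edgeR adjusted p = 0.000795), and its syngeneic against control value missed the threshold (log2 fold change -0.22 with SE 0.13, edgeR adjusted p = 0.173). The call between the transplanted groups was kept under every alternative run, and the allogeneic against control value was -0.48 with the offset. In syngeneic against control the log2 fold change of Parp1 was -0.39 with library totals alone (edgeR adjusted p = 0.0156). With the offset it was 0.18, of the opposite sign and not called (edgeR adjusted p = 0.255). Parp2 had 93.7, 102, 96.9 and 91.4 CPM in the control, 53.9, 45.1, 58 and 62.7 in the syngeneic and 58, 55, 51.2 and 55.1 in the allogeneic libraries. All transplanted libraries were below all controls and the transplanted groups overlapped fully, with a fall of -0.81 ± 0.11, edgeR adjusted p = 4.57e-06 in syngeneic and -0.81 ± 0.11, edgeR adjusted p = 3.35e-06 in allogeneic microglia (log2 ± SE) and a difference between them smaller than its SE of 0.11 (edgeR adjusted p = 0.996). The ratio of Parp1 to Parp2 counts, again chosen after the values were seen, was 0.727 to 0.97 in control, 1.21 to 1.55 in syngeneic and 0.569 to 1.04 in allogeneic libraries.

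The DNA ligases of this group went in opposite directions. Lig1, which joins Okazaki fragments in replication and seals long-patch repair, had 9.34, 21.9, 17.1 and 12.2 CPM in the control, 26.9, 25.8, 36.2 and 42 in the syngeneic and 20.9, 20.5, 28.7 and 30.8 in the allogeneic libraries. All syngeneic libraries exceeded all controls, and the 2 lower allogeneic libraries fell short of control 2. Lig1 rose in syngeneic (log2 fold change 1.11 with SE 0.24, edgeR adjusted p = 0.000861) and in allogeneic microglia (log2 fold change 0.73 with SE 0.24, edgeR adjusted p = 0.0149), the latter call being lost at 0.05 to 0.0524 without any 1 of control 1, control 4 or allogeneic 4 and at 0.226 with library totals. Lig3, the partner of XRCC1, was at 16.3 ± 2.34 CPM in control, 9.97 ± 3.89 in syngeneic and 9.77 ± 3.0 in allogeneic libraries (mean ± SD, n = 4), with overlapping groups. It fell in syngeneic (log2 fold change -0.71 with SE 0.29, edgeR adjusted p = 0.0468) and in allogeneic microglia (log2 fold change -0.74 with SE 0.29, edgeR adjusted p = 0.036), calls lost at 0.0511 to 0.143 without any 1 of control 1, control 2, control 3, syngeneic 2, syngeneic 4, allogeneic 1 or allogeneic 4 and at 0.0592 to 0.107 without any 1 of control 1, control 2, control 3, allogeneic 1, allogeneic 2 or allogeneic 4 respectively. Because 27.9% of the exon bases of Lig3 lie opposite exons of Rffl, and the strand setting of the counting is not given in the sources used here, reads of the 2 genes may not be told apart. The same holds for 22.1% of the exon bases of Trp53bp1 (opposite Tubgcp4), 13.4% of Fanci (opposite Polg) and at most 10.2% of any other member but Apex1.

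Ung, the glycosylase that removes uracil from DNA, had 1.19, 0.345, 2.06 and 0.698 CPM in the control, 4.52, 3.88, 3.04 and 5.33 in the syngeneic and 2.27, 1.47, 3.75 and 4.09 in the allogeneic libraries. The syngeneic libraries stood above all controls, and allogeneic 2 lay within the controls. Ung rose in syngeneic (log2 fold change 1.96 with SE 0.58, edgeR adjusted p = 0.00835) and in allogeneic microglia (log2 fold change 1.42 with SE 0.57, edgeR adjusted p = 0.0407), the latter call being lost at 0.0517 to 0.104 without any 1 of control 1, control 2, control 4, syngeneic 1, syngeneic 4, allogeneic 3 or allogeneic 4. Ogg1, which removes oxidised guanine, and Apex1, the endonuclease that cuts abasic sites, were called in no comparison, with log2 fold changes against control of 0.24 ± 0.22 and 0.16 ± 0.22 for Ogg1 and 0.36 ± 0.17 and 0.41 ± 0.17 for Apex1 (± SE, syngeneic then allogeneic). Apex1 passed the threshold in allogeneic against control at 0.032 to 0.0405 without any 1 of control 3 or allogeneic 4, and 70.8% of its exon bases lie opposite exons of Pip4p1, so its value is uncertain. Summed over the 8 genes, the level was 286 ± 11.1 CPM in control, 226 ± 23.7 in syngeneic and 183 ± 9.24 in allogeneic libraries (mean ± SD, n = 4). Parp1 and Parp2 make up most of that sum.

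The Fanconi anaemia genes, which act on crosslinks between DNA strands, gave 1 call among 3 genes and 3 comparisons. That call was in syngeneic against control, where 52.1% of all genes tested were called. Fancd2, whose product is clamped on DNA together with that of Fanci, had 0.124, 1.27, 2.06 and 3.93 CPM in the control, 5.82, 6.4, 3.72 and 7.83 in the syngeneic and 5.39, 3.31, 2.52 and 3.56 in the allogeneic libraries. The syngeneic and control libraries overlapped through control 4. Fancd2 rose in syngeneic microglia (log2 fold change 1.69 with SE 0.63, edgeR adjusted p = 0.0308), a call lost at 0.0518 to 0.0771 without any 1 of control 2, control 3, syngeneic 1, syngeneic 2 or syngeneic 4. Its allogeneic value missed the threshold (log2 fold change 1.0 with SE 0.62, edgeR adjusted p = 0.179) and passed it at 0.0379 without control 4. Without control 4 the log2 fold changes of Fancd2 were 2.36 and 1.67, and limma-voom gave 2.38 in syngeneic against control. Fanci had 4.01, 1.94, 3.86 and 1.19 CPM in the control, 0.736, 0.711, 1.01 and 6.44 in the syngeneic and 4.1, 4.81, 1.26 and 5.06 in the allogeneic libraries, with syngeneic 4 alone above the rest of its group. Without syngeneic 4, Fanci was lower in syngeneic than in control microglia (log2 fold change -1.74) and higher in allogeneic than in syngeneic microglia (2.20), at edgeR adjusted p = 0.0344 and 0.0338. Fanca, a subunit of the core complex, was at 0.763 ± 0.917 CPM in control, 0.675 ± 0.267 in syngeneic and 0.473 ± 0.362 in allogeneic libraries (mean ± SD, n = 4) and was called in no comparison. Msh6, which recognises mismatched bases, had 14.2, 10.7, 10.8 and 15.8 CPM in the control, 13.2, 23.4, 16.8 and 19.99 in the syngeneic and 12.1, 12.1, 8.06 and 12.7 in the allogeneic libraries. All syngeneic libraries exceeded all allogeneic ones, with allogeneic 3 lowest. Msh6 was lower in allogeneic than in syngeneic microglia (log2 fold change -0.70 with SE 0.23, edgeR adjusted p = 0.0411), a call lost at 0.0598 to 0.143 without any 1 of syngeneic 2, syngeneic 3, syngeneic 4, allogeneic 1, allogeneic 2 or allogeneic 3 and at 0.0525 with no filter on low counts. Against control it was called in neither group (0.51 ± 0.23, edgeR adjusted p = 0.0686 in syngeneic and -0.19 ± 0.23, edgeR adjusted p = 0.49 in allogeneic microglia, log2 ± SE), and the syngeneic value passed at 0.0307 to 0.0472 without any 1 of control 4 or syngeneic 1.

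**Figure D2:**
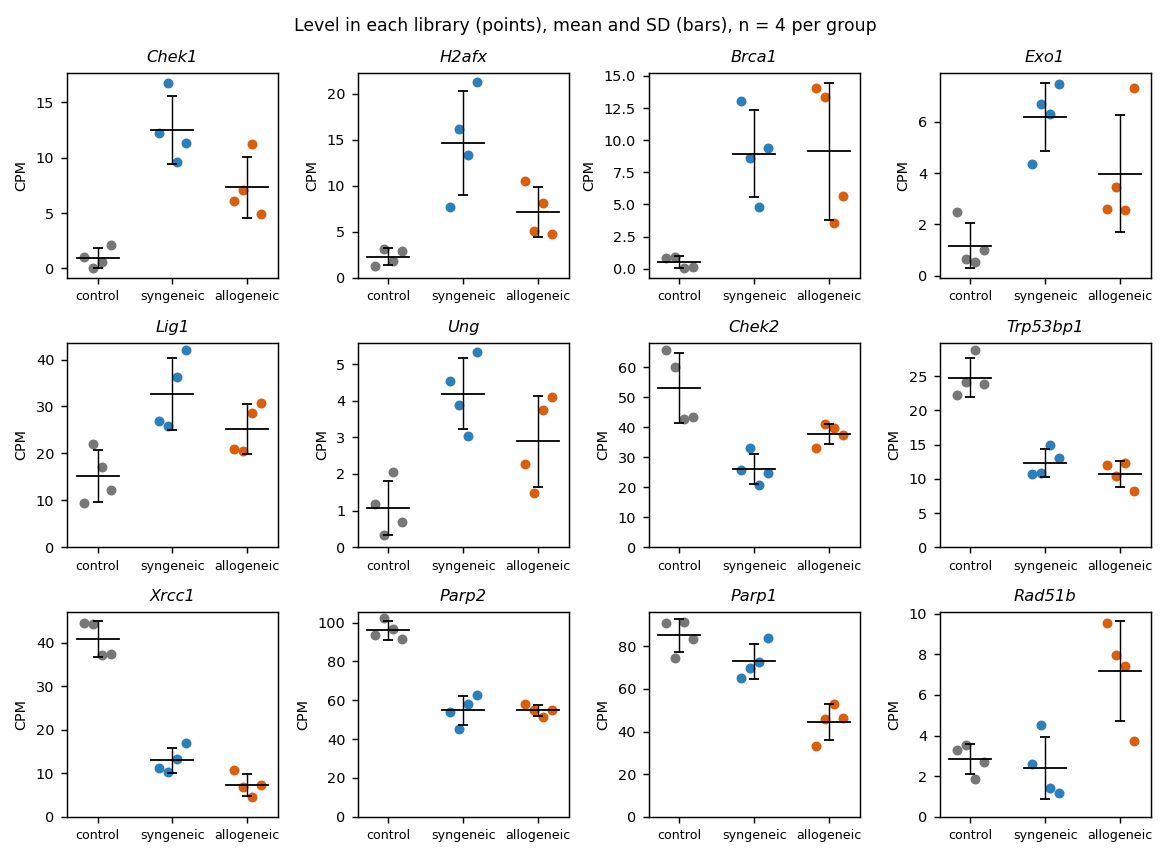
CPM of 12 of the genes in each of the 12 libraries (points), with the group mean and SD as bars, n = 4 per group; each panel has its own vertical axis. Chek1, H2afx, Brca1, Exo1, Lig1 and Ung are higher in the transplanted groups than in control, Chek2, Trp53bp1, Xrcc1 and Parp2 are lower, Parp1 is lowest in the allogeneic group and Rad51b is highest there.

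Between the transplanted groups, which both had irradiation and a graft, 6 members were called, or 16.7%, beside 16.5% of all genes tested. Chek2 and Rad51b were higher, and Xrcc1, Parp1, Xrcc5 and Msh6 lower in allogeneic microglia. Of these, only Parp1 kept its call under all 21 alternatives. In this comparison 3 members (Chek2, Parp1 and Msh6) of the 36 had groups that did not overlap, beside 20.7% of all genes tested. Against control the groups did not overlap for 13 members in syngeneic and 14 in allogeneic microglia, beside 50% and 53.8% of all genes. Parp1 had the smallest adjusted p of the 36. The allogeneic mean of Chek2 lay between the syngeneic and control means, that of Xrcc1 below both, and that of Xrcc5 within the range of the controls.

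Levels of different genes can be compared only per length. In control microglia, the highest of the 36 per kilobase of transcript was Parp2 at 50.8 ± 2.54 CPM per kb, followed by Chek2 at 23.3 ± 5.14, Parp1 at 22 ± 2.04, Xrcc1 at 16.2 ± 1.62 and Apex1 at 12.8 ± 2.07 (mean ± SD, n = 4). Chek2 and Parp1 did not differ beyond their spread. At the low end, Brca1 was last at 0.074 ± 0.0709 CPM per kb, after Exo1 at 0.151 ± 0.114, Fanca at 0.17 ± 0.205 and Chek1 at 0.242 ± 0.236, whose spreads overlapped. In the transplanted groups the order changed at both ends. Xrcc1 went from rank 4 in control to rank 11 in syngeneic and 14 in allogeneic microglia, Chek1 from rank 33 to 15 and 20, H2afx from 22 to 8 and 11, and Brca1 from 36 to 27 and 25. Parp2 was first in all 3 groups. The lengths are those of each gene's longest protein-coding transcript in the reference annotation, not of the build to which the reads were aligned. The ranks depend on that choice of transcript. That of Apex1 is also uncertain because 70.8% of its exon bases lie opposite exons of Pip4p1.

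Other genes of the repair pathways were taken from lists. Of 104 tested, 31 rose and 26 fell in syngeneic against control (54.8% called, beside 52.1% of all genes). In allogeneic against control 27 rose and 34 fell (58.7%, beside 57.3%), and in allogeneic against syngeneic 2 rose and 5 fell (6.73%, beside 16.5%). The counts of single lists that follow stand beside the same shares of all genes. Among 41 other genes of recombination, checkpoints and end joining, 17 rose and 9 fell in syngeneic microglia, led by Tipin, which steadies replication forks (1.76 ± 0.12), and Rpa3, a subunit of the protein that coats single-stranded DNA (1.32 ± 0.16, log2 ± SE). In allogeneic microglia 14 rose and 12 fell, with Tipin again higher (1.48 ± 0.12, log2 ± SE). Among 11 other Fanconi anaemia genes, 3 rose and 2 fell in syngeneic and 2 rose and 3 fell in allogeneic microglia. Ube2t, the ubiquitin-conjugating enzyme that modifies FANCD2, was higher by 2.84 ± 0.37 and 2.8 ± 0.37 (log2 ± SE).

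Among 18 other genes of base excision and single-strand break repair, 4 rose and 7 fell in syngeneic and 4 rose and 9 fell in allogeneic microglia, with a median log2 fold change of -0.50 and -0.83 beside -0.03 and -0.07 for all genes. Fen1, the flap endonuclease of replication and long-patch repair, was higher by 1.14 ± 0.15 and 0.95 ± 0.15, and Mutyh, which removes adenine opposite oxidised guanine, was lower in both groups (-2.52 ± 0.55 in syngeneic and -3.44 ± 0.57 in allogeneic microglia, log2 ± SE). Among 19 nucleotide excision repair genes, 3 rose and 6 fell in syngeneic and 4 rose and 9 fell in allogeneic microglia. Their median log2 fold changes were -0.22 and -0.51, beside -0.03 and -0.07 for all genes. Unlike most of the called genes of this list, Cetn2 (1.33 ± 0.10 and 1.55 ± 0.10) and Gtf2h5 (1.15 ± 0.12 and 1.57 ± 0.12) were higher in both groups. Among 6 other mismatch repair genes, 1 rose and 1 fell in each of the 2 comparisons with control, Pms1 being higher (0.79 ± 0.31 and 1.16 ± 0.31, log2 ± SE). Of 9 genes of translesion synthesis and direct reversal, 3 rose and 1 fell in syngeneic and 2 rose and 0 fell in allogeneic microglia, among them Rad18 (1.97 ± 0.33 and 1.97 ± 0.33) and Mgmt, which reverses guanine alkylation (1.11 ± 0.22 and 1.75 ± 0.22, log2 ± SE). Between the transplanted groups, Dna2, a nuclease of end resection, was higher (1.29 ± 0.34) and Rpa1 lower (-0.44 ± 0.13) in allogeneic microglia.

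Genes of cell division and of the p53 response moved in the same comparisons, and their part in the values of the members was not tested. Of 23 genes of DNA replication and S phase, 22 rose and 0 fell in syngeneic and 22 rose and 0 fell in allogeneic against control, and their summed level was 252 to 324 CPM in control, 957 to 1183 in syngeneic and 768 to 878 in allogeneic libraries. In allogeneic against syngeneic 0 rose and 5 fell, Mcm4 among them (-1.27 ± 0.19, log2 ± SE). Of 18 mitotic genes, 18 rose and 0 fell in syngeneic and 17 rose and 0 fell in allogeneic against control, with sums of 51 to 66.3, 578 to 669 and 489 to 598 CPM in control, syngeneic and allogeneic libraries. Of 20 p53 target genes, 13 rose and 1 fell in syngeneic and 15 rose and 1 fell in allogeneic against control, with Cdkn1a, which encodes the cell cycle inhibitor p21, higher by 3.11 ± 0.09 and 3.16 ± 0.09 (log2 ± SE). In contrast to the division lists, the sum of the 9 sensing and checkpoint members overlapped between all 3 groups (179 to 191, 172 to 207 and 175 to 187 CPM). In that sum the falls of Chek2 and Trp53bp1 and the rises of Rad50, Chek1 and H2afx are added with opposite signs. Mdc1, called lower in allogeneic microglia only, adds to the falls. By mean CPM, the largest fall in both transplanted groups was that of Chek2 and the largest rise that of Rad50.

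**Figure D3:**
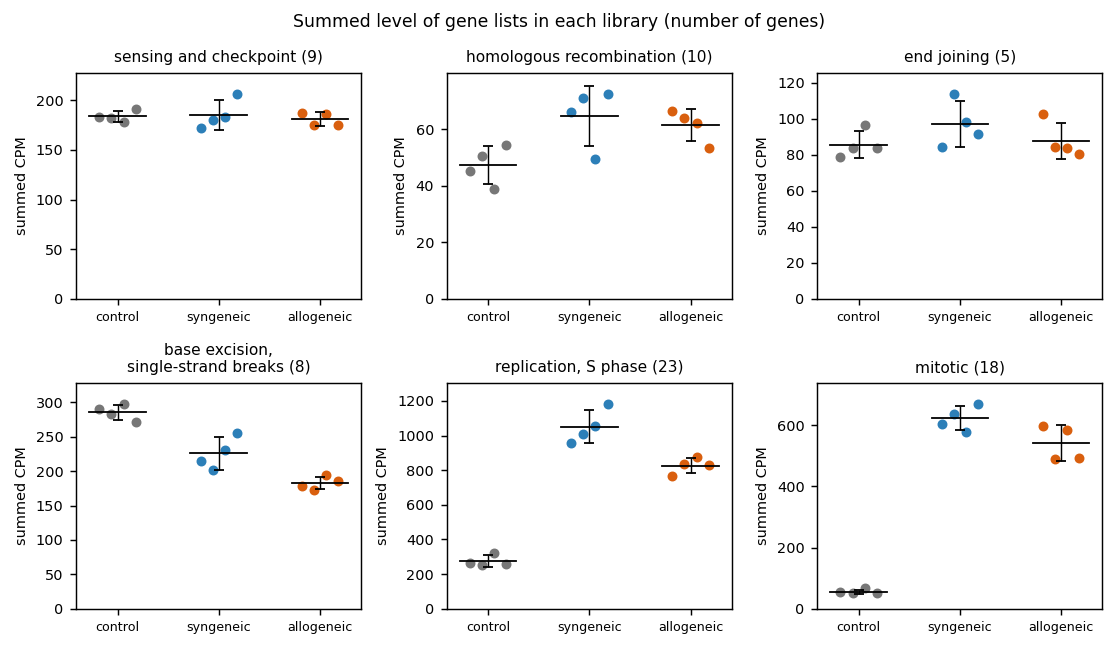
Summed CPM of 4 role groups of members and of the replication and mitotic lists in each library (points), with the mean and SD as bars, n = 4 per group; vertical axes start at 0 and differ between panels. The base excision and single-strand break members step down from control to syngeneic to allogeneic libraries, while the replication and mitotic lists are several times higher in both transplanted groups.

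Fold changes of all genes were related to GC content and transcript length. Across 12612 genes, which are not independent replicates, Spearman's rho of the log2 fold change with GC content was -0.30 in syngeneic against control, -0.28 in allogeneic against control and -0.04 in allogeneic against syngeneic. The members' transcripts had a median length of 3835 bases and a median GC content of 47.1%, beside 3025 bases and 49.96% over the genes tested. With an offset for both, 12 of the 18 members called in syngeneic against control were still called, 13 of 19 in allogeneic against control and 4 of 6 in allogeneic against syngeneic. The calls lost were Blm, Xrcc4, Xrcc5, Xrcc6, Prkdc and Lig3 in the first comparison, Mdc1, Rad51b, Xrcc3, Blm, Xrcc4 and Lig3 in the second, and Chek2 and Msh6 in the third. Their edgeR adjusted p with the offset ran from 0.069 to 1, 0.0605 to 0.661 and 0.0544 to 0.0763, in that order. Msh6 (higher) was gained in the first and Brca2 (lower) and Rad54l (higher) in the second. The large changes of Chek1, H2afx, Brca1, Trp53bp1, Xrcc1, Parp1 and Parp2 against control kept their calls where they had them.

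With library totals in place of TMM factors, the calls of Blm (edgeR adjusted p = 0.0505), Fancd2 (0.0569), Prkdc (0.147) and Xrcc5 (0.1) ended in syngeneic against control, where Parp1 was then lower. In allogeneic against control those of Blm (0.209), Lig1, Rad50, Rad51b (0.0799) and Ung (0.116) ended, while Atr, Brca2, Xrcc2, Xrcc6 and Msh6 were then lower. In allogeneic against syngeneic that of Chek2 ended (0.163), and H2afx was then lower (0.0228). H2afx also passed the threshold in that comparison with DESeq2 (DESeq2 adjusted p = 0.0394), with limma-voom (limma-voom adjusted p = 0.0442) and when only the 2 groups were fitted (edgeR adjusted p = 0.0367). With DESeq2, Nbn (DESeq2 adjusted p = 0.0421), Rad54l (0.0329) and Apex1 (0.0166) passed it in allogeneic against control, and Apex1 (0.0478) and Msh6 (0.0446) in syngeneic against control, all higher. Apex1 also passed it in allogeneic against control with RLE factors (edgeR adjusted p = 0.0344) and with a filter at 1 CPM in 4 libraries (0.0496), and Msh6 in syngeneic against control with limma-voom (limma-voom adjusted p = 0.0491). In allogeneic against syngeneic, Chek2 missed it with limma-voom (limma-voom adjusted p = 0.0502), and Xrcc5 with RLE factors (edgeR adjusted p = 0.0552) and with no low count filter (0.0599). Against control, Lig3 missed it with RLE factors (0.0534, syngeneic), Prkdc with no filter (0.0552, syngeneic), Ung with no filter (0.0606, allogeneic) and with 2 groups fitted (0.0824), and Blm with 2 groups fitted (0.0573, allogeneic), all edgeR adjusted p.

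**Figure D4:**
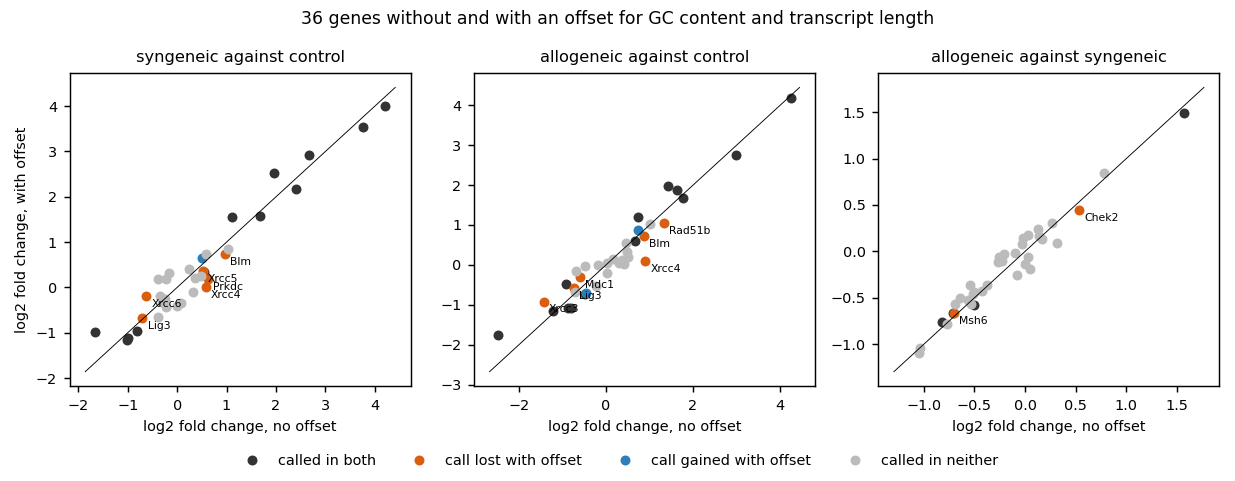
Log2 fold change of the 36 genes without (horizontal) and with (vertical) the GC content and length offset, in 3 comparisons with their own axes; the line marks equal values, and colours show whether a gene was called in both fits, in 1 of them or in neither. Xrcc4 falls to near 0 in syngeneic against control, Xrcc1 moves up in both comparisons with control, from -1.66 to -0.99 and from -2.48 to -1.75, and Ung moves up from 1.96 to 2.54 and from 1.42 to 1.97.

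Markers of other cells were summed in the same libraries. The 10 microglia markers were detected in every group, at 47533 to 54262 CPM in control, 45683 to 48557 in syngeneic and 33181 to 34617 in allogeneic libraries, and 6 rose and 4 fell in syngeneic and 3 rose and 7 fell in allogeneic microglia against control. The 10 markers of engrafted macrophages and monocytes summed to 10.03 to 17.5, 21.4 to 42.6 and 109 to 135 CPM, so that the allogeneic sums were highest. However, 1 marker held 77.9 of the mean allogeneic sum of 119 CPM. Another marker was lower in allogeneic than in control libraries (mean 4.0 and 9.49 CPM). Of the 8 that were tested, 4 rose and 0 fell in syngeneic and 5 rose and 1 fell in allogeneic microglia against control. The 7 choroid plexus markers were at 12.9 to 96.8, 1099 to 1940.4 and 343 to 613 CPM, highest in the syngeneic libraries, where 7 rose and 0 fell against control. The T and NK cell list (12 of 13 genes in the table, Ncr1 and Gzma at 0 in every library) summed to 1.39 to 2.53, 0.446 to 4.24 and 2.83 to 4.54 CPM in control, syngeneic and allogeneic libraries. The B and plasma cell list (Pax5 and Mzb1 at 0) summed to 19.1 to 32.8, 13.4 to 27.1 and 18 to 27.6 CPM. Neutrophil and marrow progenitor markers (Mpo at 0) reached at most 28.1 CPM and erythroid markers (4 globin genes at 0) at most 14.8 CPM, both in control libraries. Neuron and glia markers were at 27.2 to 41.8, 40.4 to 81.2 and 56.3 to 72.4 CPM, and endothelial and mural markers at 23.5 to 40.1, 13.8 to 18.6 and 15.9 to 23.5 CPM. The part of these cells in the values of the members was not tested.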

How the data were processed

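RNA-seq was made of sorted microglia from 12 mice, 4 per group; per the labels' protocols, RNA came from a Picopure kit and had an integrity value of at least 8. Trimming used Trimmomatic 0.36 and alignment to mm9 used STAR 2.5.2b, per the submitters' processing notes. What the authors deposited is a single table of raw counts, whole numbers for 24328 symbols. The sources used here name neither the counting tool nor its strand setting or annotation, so values of genes with exons on opposite strands are uncertain.

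From the deposited counts, 1 edgeR 4.0.16 quasi-likelihood fit (R 4.3.3, filterByExpr at minimum count 10, TMM scaling, robust, group means of all 12 libraries, 9 residual degrees of freedom) gave the 3 comparisons, with Benjamini-Hochberg adjustment over all 12695 genes tested. SE is the size of the log2 fold change divided by the square root of F. Libraries within a group correlated at a Spearman rho of 0.975 to 0.984 in log2 CPM, and the squared biological coefficient of variation was 0.147. A count of 3 corresponds to 0.0588 to 0.0945 CPM per library, counting error only. The labels give 4 mice per group. The members and gene lists were chosen with earlier results of these data known. Every member is named; of other lists, the genes named are the 2 called members with the smallest p, or some of them, in each comparison, and some genes are not reported here; counts of lists include them. In the lists, 1 repair symbol and 1 T cell symbol did not match the table.

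Lengths and GC content came from GENCODE M21 on GRCm38, and promoters from RefSeq on GRCm38.p6; of the 24328 symbols, 23298 matched directly, 650 through a synonym and 380 not at all. No coordinates of the files' build are printed. Alternatives were RLE factors, library totals, 2 other low count filters, DESeq2 1.42.0, limma-voom (limma 3.58.1), fits of only the 2 groups compared, a replicate block, an offset for GC content and length (loess), and leaving out each library.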

Additional observations from a re-analysis of the deposited data

Results flagged for a closer look

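In 3 of the 108 combinations of a member and a group, 1 library stood apart from the other 3 by more than Dixon's 95% criterion allows; chance flags about 1 in 20 such groups. Fanci was at 6.44 CPM in syngeneic 4 and at 0.711 to 1.01 CPM in the other syngeneic libraries. Xrcc2 was at 8.86 CPM in allogeneic 1 and at 3.02 to 3.44 CPM in the other allogeneic libraries. Msh6 was at 8.06 CPM in allogeneic 3 and at 12.1 to 12.7 CPM in the other allogeneic libraries.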

How the results depend on the processing

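Of the members called, 7 of 12 that rose and 4 of 6 that fell in syngeneic against control kept their call under all 21 alternatives, as did 4 of 10 and 5 of 9 in allogeneic against control, and 0 of 2 and 1 of 4 (Parp1) in allogeneic against syngeneic. No value called reversed its direction. With library totals, all genes in allogeneic against syngeneic gave 844 higher and 2108 lower calls (1288 and 810 with TMM); members gave 1 higher, and other repair genes 1 higher and 19 lower (2 and 5 with TMM). In allogeneic against control library totals gave 5 members higher and 14 lower. In allogeneic against syngeneic, 1 member was higher with limma-voom and 1 with the GC and length offset, 2 were lower with no low count filter, and other repair genes lower numbered 8 with DESeq2 and 8 with the offset, 1 being higher with the offset. Apart from leaving out a library, other settings kept these counts within 1.5 times, and the causes were not tested. Leaving out a library moved some counts in allogeneic against syngeneic by more, as the ranges below show.

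Leaving out each library in turn gave 0 to 2 members higher and 1 to 5 lower in allogeneic against syngeneic, 9 to 12 and 4 to 6 in syngeneic against control, and 8 to 10 and 6 to 10 in allogeneic against control. Other repair genes in allogeneic against syngeneic gave 1 to 3 higher and 3 to 6 lower. Same-numbered mice did not deviate together (correlations of -0.0150 to 0.0317, 0 of 12 pairs over 0.1, and 0 samples correlating best with their own number), so the numbers only name mice. With the replicate number as a block, allogeneic against syngeneic gave 2 members higher and 3 lower and 7 other repair genes lower, and Xrcc5 in that comparison and Xrcc6 in syngeneic against control lost their calls (edgeR adjusted p = 0.0681 and 0.0689). Low counts limit Brca1, Chek1, Exo1, Ung, Fanca and Fancd2 in control libraries.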
